A study of Homo sapiens with 6 samples.

Results

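KIF4A, PRC1 and 8 further motors of the mitotic spindle were followed in RNA that came down with Ago2 from HEK293 cells, an established human embryonic kidney line. The 10 genes were taken by symbol from a table of 48162 genes, and all 10 were among the 16233 genes with enough counts to be tested. KIF4A was picked because an earlier pass over these libraries found it higher with the microRNA-219 mimic, and KIF11 was also named there, while the other 8 genes were added as its partner and as fellow motors. The contrast of mimic against control is therefore given for these genes as a description, without a test.

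Every library came from cells that received Flag-tagged Ago2 by co-transfection, so no group lacked the extra Ago2. In 3 libraries the cells also received mir-219 mimics, and in the other 3 they received negative control mimics. Each group had 1 library from 22 August, 1 from 5 September and 1 from 18 September. Anti-Flag agarose was used for the precipitation, and the RNA on it was sequenced. The labels do not say whether dates were separate cultures, so the spread between libraries may be technical. Input RNA was not used here, and a level reflects the abundance of a transcript in the cells as well as its share on Ago2.

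KIF4A is a chromosome-bound kinesin, a motor that walks along microtubules. In anaphase it is recruited by PRC1, which crosslinks antiparallel microtubules between the separating chromosomes, and together they set the length of the central spindle. Most mitotic kinesins are made in the second part of the cell cycle, when factors such as FOXM1 and MYBL2 act on promoters that carry a CCAAT box and a cell cycle homology region (CHR). HEK293 cells divide quickly, and these transcripts are commonly found in such lines.

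The mimic stands for microRNA-219, whose seed (bases 2 to 8, in capitals) pairs with target transcripts. The sequences are shown because the transfected mature strand is not stated in the labels, and the strands have different seeds, GAUUGUC and GAAUUGU. They are the RefSeq mature forms from MIR219A2, the locus named in the title of the study.
hsa-miR-219a-5p: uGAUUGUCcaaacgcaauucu
hsa-miR-219a-2-3p: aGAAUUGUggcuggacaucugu

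The start regions of KIF4A and PRC1 are shown because the motor and its partner carry the same pair of motifs but had different values with the mimic. Each run holds 250 bases before and 50 after the start, from RefSeq on GRCh38.p14, at chrX:70289854-70290153 (plus strand) and chr15:90994486-90994785 (minus strand). Capitals mark the CHR letters TTTGAA and the CCAAT box, each searched on both strands (ATTGG is CCAAT on the other strand).
KIF4A: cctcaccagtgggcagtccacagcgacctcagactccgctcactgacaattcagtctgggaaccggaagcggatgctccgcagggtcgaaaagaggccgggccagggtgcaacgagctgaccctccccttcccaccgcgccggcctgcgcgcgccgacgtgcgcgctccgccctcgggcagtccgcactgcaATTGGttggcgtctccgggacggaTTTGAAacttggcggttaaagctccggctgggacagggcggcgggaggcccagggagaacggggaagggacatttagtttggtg
PRC1: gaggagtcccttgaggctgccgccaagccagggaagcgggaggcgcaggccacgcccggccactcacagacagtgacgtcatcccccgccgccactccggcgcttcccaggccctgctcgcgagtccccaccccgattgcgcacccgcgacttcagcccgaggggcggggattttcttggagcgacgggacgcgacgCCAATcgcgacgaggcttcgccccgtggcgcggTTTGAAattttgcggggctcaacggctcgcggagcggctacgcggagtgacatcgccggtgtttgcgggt

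In KIF4A the CHR letters began 34 bases before the start, and in PRC1 they began 20 bases before it. The promoter table held all 10 genes, with 11 windows because KIF22 has more than 1 start. TTTGAA was found in 6 of the 10 genes, namely KIF4A, PRC1, KIF11, KIF23, KIF18A and KIFC1, against 15.2% of 35116 windows of 300 bases. These 6 also held CCAAT, a pair of motifs found in 5.9% of all windows. TTTAAA, a second form of the CHR that reads the same on both strands, was found in KIF20A, KIF2C, CENPE and KIF23. Either form was present in 9 of 10 genes and in 24.0% of all windows, and KIF22 held neither of these letters in its windows. No other spelling of the CHR was searched, so KIF22 is not shown to lack one. CCAAT alone was present in 8 of 10 genes against 34.6% of windows. These matches describe letters in a window and were not measured as binding.

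Libraries held 20233819 to 34408699 counts. AGO2 took 10.6 to 18.0% of them, and mitochondrially encoded transcripts took 13.3% in the mimic library of 22 August against 5.66 to 8.39% in the other 5. All 8 markers of HEK293 cells, such as VIM and LIN28B, were above 1 CPM, a count scaled to library size, in every library. Of 12 markers of intestine and plasma cells in the table, 1 (CDX2) was above 1 CPM in every library. The 12 summed to 9.40 to 43.6 CPM in mimic libraries and to 14.2 to 63.5 CPM in control libraries. CDX2 alone made 9.05 CPM of this in the mimic library of 22 August and 13.1 CPM in the control library of 5 September. The plasma cell marker IGHA1 was at 0 in those libraries and at 5.26 to 16.3 CPM in the others. Blood markers summed to 688 CPM, almost all of it HBB, in the 5 September control library and lay between 0.936 and 1.28 CPM in the other 5. The part of these transcripts in the values below was not tested.

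KIF4A (ENSG00000090889, chrX:69509879-69640682 of hg19) had 2096, 1548 and 898 counts in the mimic libraries of 22 August, 5 September and 18 September, and 802, 1067 and 470 in the control libraries. Scaled by TMM, which adjusts library sizes for composition, these were 72.4, 54.6 and 41.6 CPM in mimic libraries against 31.8, 31.6 and 22.3 CPM in control libraries. The lowest mimic library stood above the highest control library, so the groups did not overlap. Of all tested genes, 4.22% had every mimic library above every control library. KIF4A was chosen on this contrast, so nothing is read from that share. Its mean was 56.2 ± 15.5 CPM for mimic and 28.6 ± 5.42 CPM for control libraries (SD, n = 3 each). The fitted log2 fold change was 0.97 (SE 0.21), or 1.96-fold, and the log2 ratio was 1.18, 0.79 and 0.90 on the 3 dates in order. The first of these was the date whose mimic library had the high mitochondrial share, and without that library the log2 fold change was 0.75.

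PRC1 (ENSG00000198901, chr15:91509270-91538859), the crosslinker that recruits KIF4A, had 152, 141 and 125 CPM in mimic libraries against 157, 142 and 121 CPM in control libraries in date order. The groups overlapped, and each mimic library lay close to the control library of its date. The log2 ratio of PRC1 was −0.05, 0.00 and 0.05 on the 3 dates. The fitted log2 fold change was −0.01 (SE 0.15), with a 95% CI of −0.32 to 0.31. KIF4A per unit of PRC1, compared as CPM per kilobase of gene length, was 0.449, 0.364 and 0.314 in mimic libraries against 0.191, 0.210 and 0.174 in control libraries. The ratio was thus higher with the mimic on every date, which repeats the contrast on which KIF4A was chosen.

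**Figure D1:**
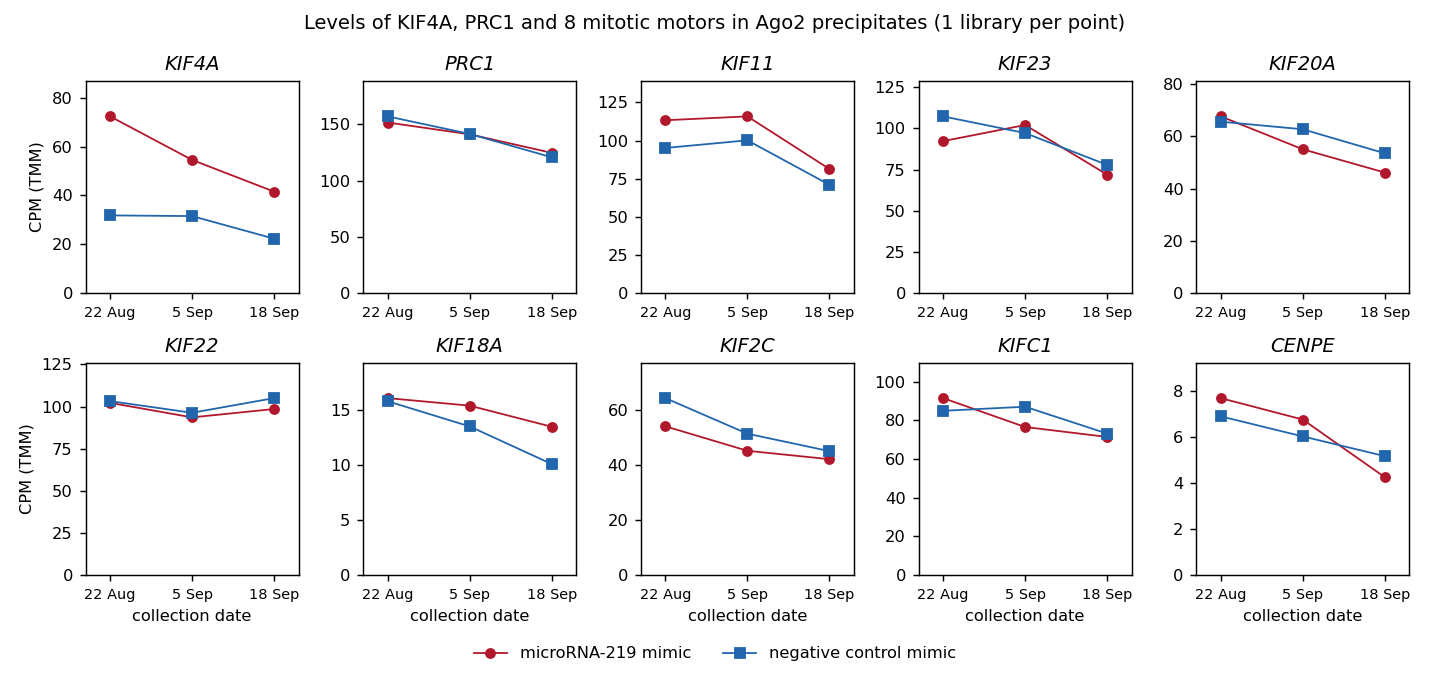
CPM after TMM scaling (vertical axes from 0) against collection date for KIF4A, PRC1 and the 8 other motors, with 1 library per point, circles for the microRNA-219 mimic and squares for the negative control mimic. KIF4A runs from 41.6 to 72.4 CPM in mimic libraries and from 22.3 to 31.8 CPM in control libraries, and the groups overlap for the other 9 genes.

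Motors that work beside KIF4A in the central spindle came next. KIF23, the motor of centralspindlin, which bundles microtubules where the cleavage furrow forms, had 92.3, 102 and 72.0 CPM in mimic libraries against 107, 97.2 and 77.9 CPM in control libraries. KIF20A, which brings the Aurora B complex to the midzone, had 67.7, 55.1 and 46.2 CPM in mimic libraries against 65.7, 62.8 and 53.6 CPM in control libraries. The groups overlapped for both genes, with the lowest value of each in the mimic library of 18 September. Their log2 fold changes were −0.08 (SE 0.17) for KIF23 and −0.11 (SE 0.16) for KIF20A. The gene model of KIF20A overlaps CDC23 and BRD8 on the opposite strand (up to 4129 and 3094 counts, where KIF20A had as few as 998). That of KIF18A, described below, overlaps METTL15 on the opposite strand (up to 756 counts, where KIF18A had as few as 213). How the counting treated strand is not given in the sources used here.

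The second chromosome-bound kinesin, KIF22, pushes chromosome arms toward the spindle equator. It had 102, 93.6 and 98.5 CPM in mimic libraries against 103, 96.3 and 105 CPM in control libraries. Of the 10 genes it varied least between libraries relative to its level, and its log2 fold change was −0.05 (SE 0.13). KIF11, which slides antiparallel microtubules apart to separate the poles, had 113, 116 and 81.4 CPM in mimic libraries against 95.1, 100.1 and 71.0 CPM in control libraries. KIF11 was higher with the mimic on each date, by log2 ratios of 0.25, 0.21 and 0.20, while the groups overlapped through the low libraries of 18 September. Its log2 fold change was 0.22 (SE 0.18). KIFC1, a minus-end motor that focuses spindle poles, had 91.5, 76.6 and 71.4 CPM in mimic libraries against 84.9, 87.1 and 73.2 CPM in control libraries, a log2 fold change of −0.03 (SE 0.14).

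Motors of chromosome alignment included the scarcest of the 10 transcripts. KIF18A, which damps the movements of aligned chromosomes, had 16.1, 15.4 and 13.5 CPM in mimic libraries against 15.8, 13.5 and 10.1 CPM in control libraries (log2 fold change 0.19, SE 0.18). KIF2C, which takes microtubule ends apart, had 54.1, 45.2 and 42.2 CPM in mimic libraries against 64.4, 51.5 and 45.1 CPM in control libraries (log2 fold change −0.19, SE 0.16). KIF2C was lower with the mimic on each date, though the groups overlapped. CENPE, the motor of the kinetochore, had 7.70, 6.77 and 4.26 CPM in mimic libraries against 6.91, 6.03 and 5.18 CPM in control libraries (log2 fold change 0.05, SE 0.23). CENPE rested on 92 to 223 counts per library, the fewest of the 10 genes.

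Across the 8 motors other than KIF4A, the median log2 fold change was −0.04, beside 0.00 for all tested genes. Values ran from −0.19 to 0.22, with 3 above 0 and 5 below. Their mean log2 level differed between groups by 0.01, 0.00 and −0.03 on the 3 dates. KIF4A was then divided by the geometric mean of the 8 motors within each library, per kilobase of gene length. This ratio was 1.21, 0.994 and 0.920 in mimic libraries against 0.537, 0.577 and 0.486 in control libraries. It was higher in every mimic library than in any control library. Because the other motors differed little, this repeats the contrast on which KIF4A was chosen. The geometric mean includes the scarce KIF18A and CENPE, so a ratio near 1 does not place KIF4A at the level of most motors. The mean ratio was 1.04 ± 0.149 against 0.533 ± 0.0458 (SD, n = 3 each), a log2 difference of 0.96. Set against each motor singly, the log2 difference ran from 0.74 (KIF11) to 1.13 (KIF2C). It was above 0 for 24 of 24 combinations of motor and date, which all reuse the same KIF4A values. KIF4A was chosen on this contrast, so nothing is read from these ratios or their count.

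**Figure D2:**
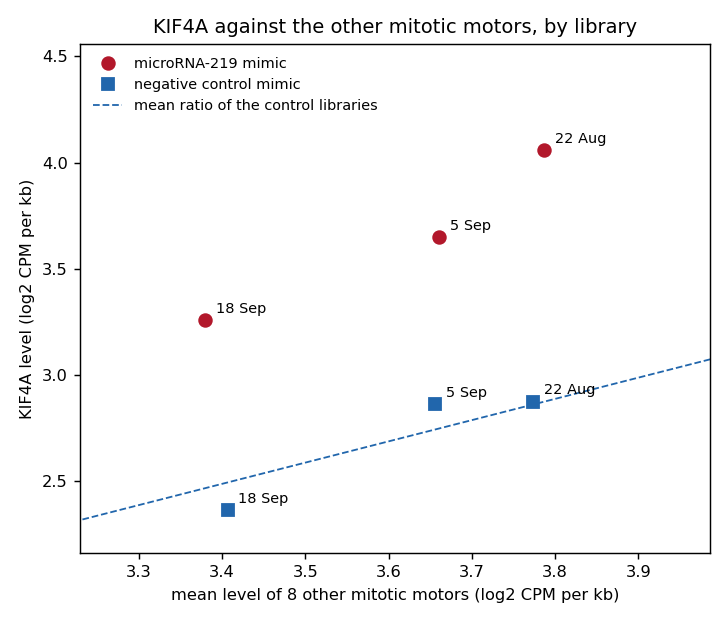
KIF4A level against the mean level of the 8 other mitotic motors, both in log2 CPM per kilobase, with 1 library per point labelled by date. The dashed line is the mean ratio of the 3 control libraries, and the mimic libraries all lie above it, with linear ratios of 0.920 to 1.21 against 0.486 to 0.577.

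Per kilobase, the order of levels was KIF22 (39.8 ± 1.76 CPM per kb, SD over all 6 libraries), PRC1 (34.1 ± 3.52), KIFC1 (29.9 ± 3.03), KIF23 (25.3 ± 3.84), KIF11 (19.8 ± 3.62), KIF20A (18.3 ± 2.58), KIF2C (17.1 ± 2.77), KIF4A (9.74 ± 4.22), KIF18A (3.95 ± 0.632) and CENPE (0.713 ± 0.146). KIF4A kept the eighth place in all 6 libraries, with the mimic as with the control. The first 4 places were also the same in every library, though the ranges of neighbouring genes over the 6 libraries overlapped from KIF22 down to KIF4A. KIF11, KIF20A and KIF2C exchanged places between libraries, and their ranges overlapped. KIF18A and CENPE were each separated from their neighbours in the order, with no overlap of ranges. The gene length is the deposited one, and differences in mapping along long transcripts such as that of CENPE (8612 bases) were not tested.

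The copy and the neighbours of KIF4A were examined next. KIF4B, a near-identical intronless copy on chromosome 5, had 0 to 5 counts per library, at most 0.466% of the counts of both genes, and did not pass the filter. Reads shared by the copies could be lost or split in counting, and the KIF4B counts do not bound this. The size of such an error in the KIF4A levels was not tested. PDZD11, which encodes a small scaffold protein with a PDZ domain, starts head to head with KIF4A on the opposite strand. Their gene models share 486 bases (chrX:69509879-69510364 of hg19), and the start window of KIF4A printed above shares 276 and 257 bases with the windows of the 2 starts of PDZD11. PDZD11 had up to 904 counts, where KIF4A had as few as 470. The treatment of strand in counting is not known, and the part of shared reads in KIF4A was not tested. PDZD11 had a log2 fold change of −0.24 (SE 0.16), with log2 ratios of −0.32, 0.01 and −0.36 by date, so it did not share the higher values of KIF4A.

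Farther out, DLG3, a scaffold of cell junctions and synapses and the nearest tested gene downstream, had log2 ratios of 0.02, 0.02 and 0.11. IGBP1, which binds catalytic subunits of protein phosphatases, had −0.16, 0.00 and −0.21. RAB41, a small GTPase, had −0.05, −0.39 and −0.74, and the scarce SLC7A3, an amino acid transporter, and the pseudogene RPS23P8 took both signs over the dates. None of the 6 neighbours had a log2 ratio above 0.5 on all 3 dates.

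**Figure D3:**
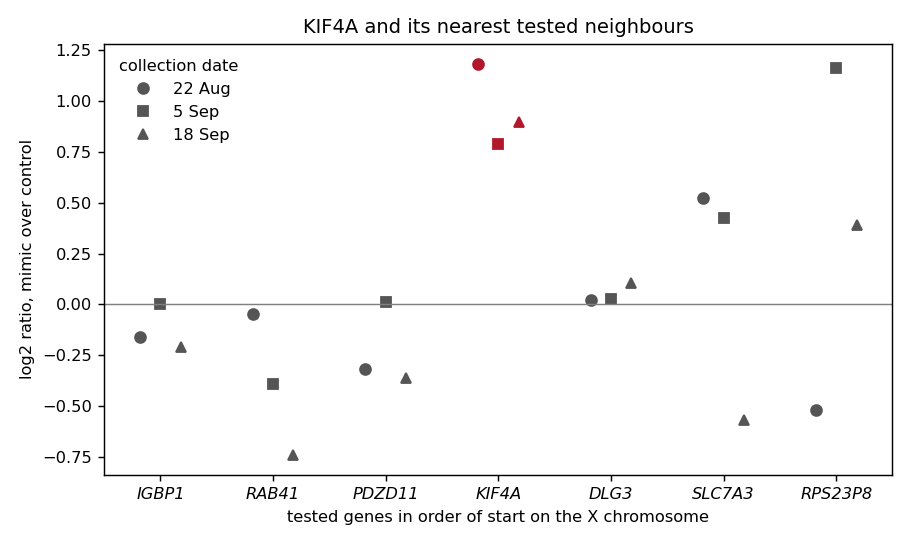
Log2 ratio of mimic over control on each date for KIF4A and the 3 nearest tested genes on either side, in order of start on the X chromosome. KIF4A lies at 0.79 to 1.18, while PDZD11, which starts head to head with it, lies at −0.36 to 0.01.

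Genes whose values over the 6 libraries were most like those of KIF4A were found by the root mean square distance between log2 profiles centred on their means. The nearest was SHROOM4, an actin-binding protein (distance 0.07, 0.615 against 0.254 CPM), followed by AP3B2, a subunit of a neuronal vesicle coat adaptor (0.10, 6.73 against 3.72 CPM). CANX, the membrane chaperone calnexin, came next (0.13, 755 against 429 CPM). USP51, a deubiquitinase (0.14), and LRRC46 (0.15) followed. No mitotic motor was among them. KIF11, the closest of the other 9 genes, stood at 0.39 and place 475, and PRC1 at 0.51 and place 3660. KIF4A was chosen for its higher values with the mimic, and the distance includes that difference. Genes without it could not come near, so nothing is read from the places of the motors. SHROOM4 and USP51 were scarce, and profiles of scarce genes carry more counting error. These profiles used a prior count of 2, a small count added to every value, which shrinks differences of scarce genes. The fitted log2 fold change of SHROOM4 was 1.25 (SE 0.45).

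The remaining genes of spindle and cytokinesis were counted from lists fixed for the purpose. Across mimic and control, edgeR called 0 of 16233 genes (0%) at an adjusted p under 0.05 and 488 (3.01%) at an unadjusted p under 0.05. DESeq2 called 5 (0.0308%), and limma-voom called 0. Of 95 tested genes on 6 lists, 0 were called higher and 0 lower by edgeR, 0 by DESeq2 and 0 by limma-voom, while 6 had an unadjusted p under 0.05 by edgeR. Further mitotic motors, 6 of 8 tested, had a median log2 fold change of 0.13. KIF20B, a cytokinesis motor, had 0.16, and DYNC1H1, the heavy chain of cytoplasmic dynein, had 0.15, with 0.88 on 22 August and −0.24 and −0.09 later.

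Central spindle and cytokinesis genes, all 14 tested, had a median of 0.07, with 9 above 0. RACGAP1, the partner of KIF23 in centralspindlin, had 97.1 against 80.1 CPM (log2 fold change 0.28, edgeR adjusted p = 0.999). All its mimic libraries lay above all its control libraries, as in 4.22% of all tested genes. RHOA, the GTPase of the contractile ring, had −0.18. Spindle assembly genes, 22 of 23 tested, had a median of −0.03. KNSTRN, an adaptor of kinetochores and spindle, had −0.31, with all mimic libraries below all control libraries. The gamma-tubulin gene TUBG1 had −0.26. Chromosome axis partners of KIF4A, all 10 tested, had a median of 0.09. SMC2, the condensin ATPase, led them with 63.3 against 46.1 CPM (log2 fold change 0.46, edgeR adjusted p = 0.999), and its groups overlapped. NCAPH2, a subunit of condensin II, had −0.19. Regulators of mitotic gene transcription, all 16 tested, had a median of −0.01, with the scarce LIN37 at 1.09 (0.760 against 0.343 CPM) and RBL1 at 0.23. On this list 1 gene (LIN37) had all mimic libraries above all control libraries, and 1 (LIN52) had them all below. LIN37 and RBL1 take part in complexes that repress cell cycle promoters.

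Among transport and other kinesins 23 of 27 tested genes lay above 0, with a median of 0.18, where 50.3% of all tested genes lay above 0. Of the 27 genes, 5 had all mimic libraries above all control libraries, as did 4.22% of all tested genes. The list's median was 0.41 on 22 August and 0.04 and 0.08 on the later dates, so most of it came from 22 August. The mimic library of that date had the high mitochondrial share, and the part of that share in this was not tested. KIF26B, a kinesin thought to lack motor activity, had 1.48 against 0.674 CPM (log2 fold change 1.10, edgeR adjusted p = 0.999). KIF27, a relative of the Hedgehog pathway kinesin KIF7, had 3.71 against 2.45 CPM (0.61). Among all 39 tested kinesins KIF4A ranked second after KIF26B, and 3 genes exceeded 0.6. KIF4A was chosen on this contrast, so nothing is read from its rank. The difference between the transport and mitotic lists was not tested.

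**Figure D4:**
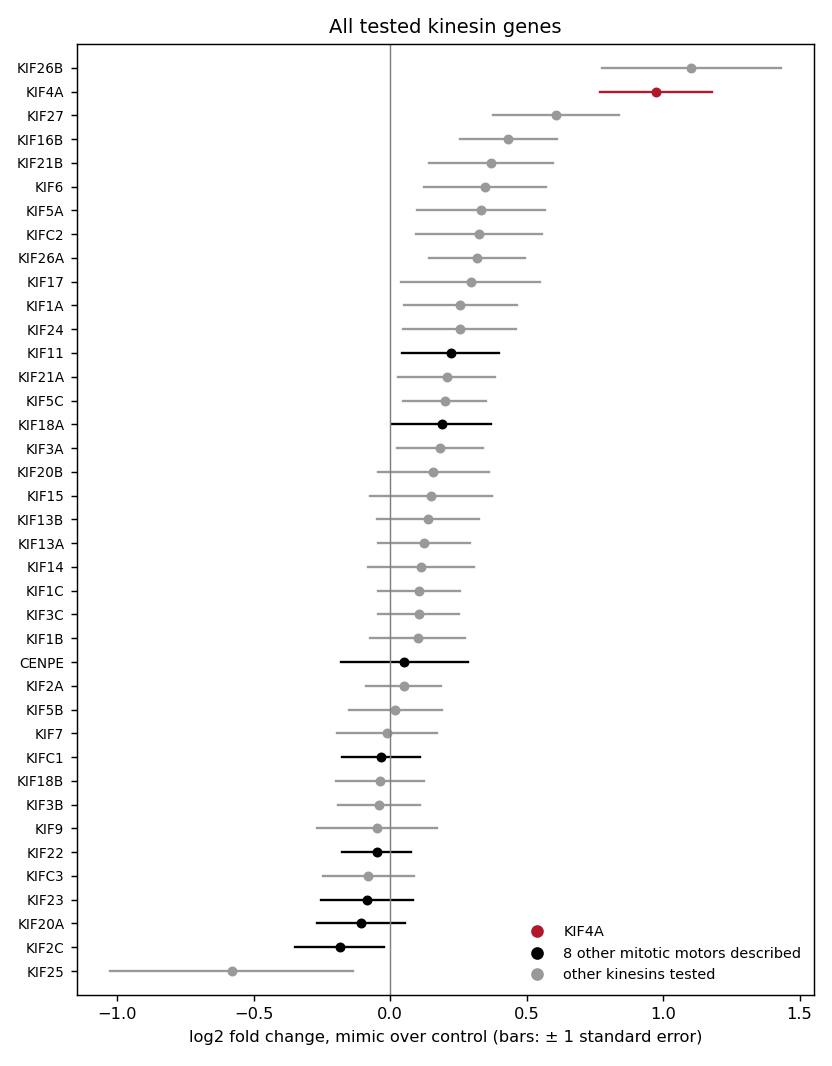
Fitted log2 fold change of mimic over control for the 39 tested kinesin genes, with bars of 1 standard error, KIF4A in red, the 8 other mitotic motors in black and the rest in grey. KIF4A lies at 0.97 and the 8 other motors between −0.19 and 0.22.

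Collection date was not used in choosing the genes, so it could be tested, with mimic as a term and 2 libraries per date. On 18 September 9 of the 10 genes lay below the mean of the other dates (49% of all tested genes did). The median log2 difference was −0.35 against 0.01 for all tested genes. KIF4A stood at −0.56 (SE 0.13, edgeR adjusted p = 0.202), CENPE at −0.53 (SE 0.18, adjusted p = 0.246), KIF11 at −0.48 (SE 0.10, adjusted p = 0.2) and KIF23 at −0.41 (SE 0.11, adjusted p = 0.223). PRC1 stood at −0.27 (SE 0.10, adjusted p = 0.281), and KIF22 was the exception at 0.04 (95% CI −0.20 to 0.28). None passed over all genes (0 of 10 in edgeR), where 8 of 16233 (0.0493%) were called lower on that date. At an unadjusted p under 0.05 there were 8 of 10, against 16.4% of all tested genes. The 10 genes come from the same 2 libraries per date, so these counts are not independent observations.

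The same 9 genes had their lowest library of the 3 dates on 18 September with the mimic and again with the control, an order seen in 18.9% of all tested genes. On 22 August all 10 genes lay above the mean of the other dates (51.1% of all tested genes did), by 0.06 (KIF22) to 0.44 (KIF4A). That mean includes the low libraries of 18 September, so this partly repeats the contrast of that date. KIF11 averaged 104 CPM on 22 August and 108 CPM on 5 September. By edgeR 0 of 10 passed, while 4 had an unadjusted p under 0.05 (6.89% of all tested genes). On 22 August 54 genes (0.333%) were called higher and 1 lower (0.00616%). On 5 September 0 of 10 passed by edgeR, 1 had an unadjusted p under 0.05 (KIF11 at 0.28, where 12.9% of all tested genes had one), and 0 of all tested genes (0%) were called. Of the 95 list genes 0 passed by edgeR on any date.

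The libraries of 18 September were also the shallowest, with 20379336 and 20233819 counts, and the part of depth in this was not tested. The calls moved with single libraries. In a test of any difference among dates, 0 of 10 genes passed (0.308% of all tested genes did), also by DESeq2 and limma-voom. Without the mimic library of 22 August KIF4A, KIF11, KIF23 and KIF2C passed, together with 16.8% of all tested genes. Without the control library of that date KIF4A, KIF11, KIF23 and KIF20A passed, with 25.5% of all tested genes. KIF4A alone passed without the mimic library (4.7%) or the control library (2.92%) of 5 September. Each of these fits leaves 1 residual degree of freedom.

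**Figure D5:**
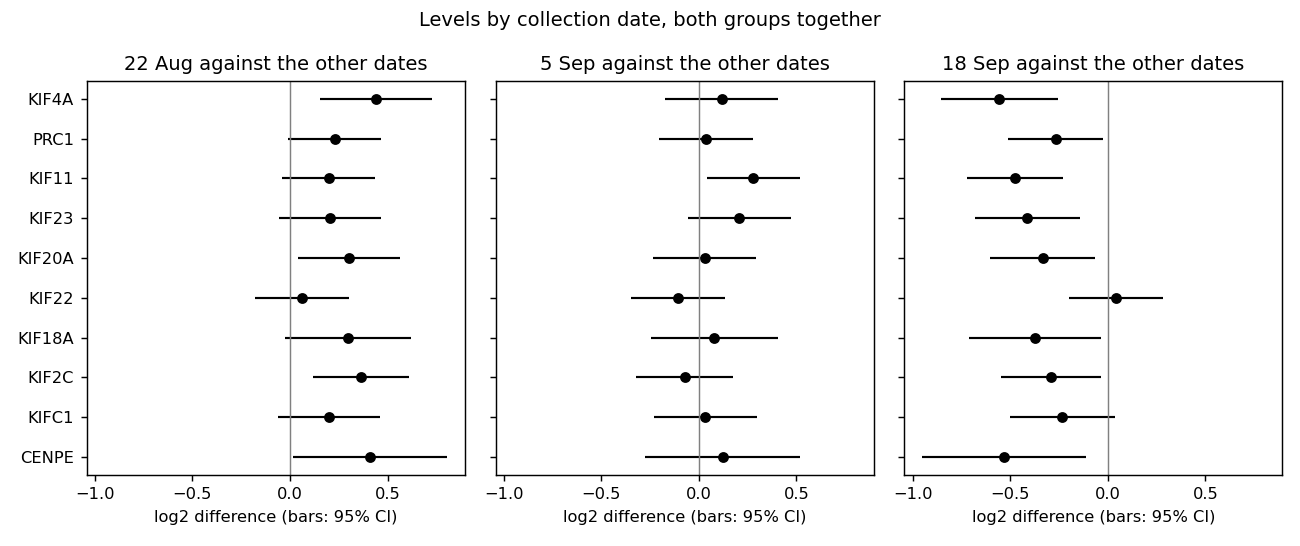
Log2 difference of each date from the mean of the other dates for the 10 genes, fitted over both groups, with 95% confidence intervals as bars. On 18 September 9 genes lie below 0 and KIF22 lies at 0.04.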

How the data were processed

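The authors deposited 1 table of raw read counts per gene for 6 libraries. Per the submitters' processing notes, STAR 2.5, HTSeq 0.6.1 and the hg19 build were used, and the counting options are not given in the sources used here. Gene lengths and coordinates are as deposited, and 0 columns of values were left unmapped. Where a symbol repeats, the row with the most counts was taken.

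Counts were fitted in R 4.3.3 with edgeR 4.0.16 (TMM, filterByExpr with min.count 10 and min.total.count 15, quasi-likelihood F test, Benjamini-Hochberg over all tested genes, threshold 0.05). limma 3.58.1 and DESeq2 1.42.0 gave alternatives. Ratios by date used log2 CPM with a prior count of 2. Date contrasts had mimic as a term. Figures used matplotlib 3.10.9. The scripts were tested on simulated data.

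Groups share a collection date in the labels, which pairs them. The SEs, intervals and p-values given for mimic against control nevertheless come from a fit without the date, unless a replicate block is named. Deviations of same-date libraries from their group means correlated at 0.0466, 0.154 and 0.513 in date order, and the mimic library of 22 August correlated more with the control library of 5 September (0.243) than with that of its own date. Libraries of a group differed beyond counting noise. Depth, 20233819 to 34408699 counts per library, limits mainly scarce genes such as CENPE.

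The members and lists were chosen with earlier results of these data known. Named genes were the 10 members, the 2 genes of lowest p per list, the 5 most like KIF4A, 3 neighbours on each side and KIF4B.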

Additional observations from a re-analysis of the deposited data

How the results depend on the processing

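KIF4A kept a log2 fold change of 0.75 to 1.15 over 14 alternatives, and its log2 difference from the other motors kept 0.85 to 1.04 over 12. Both extremes came from leaving out a library. The median of the other motors stayed between −0.12 and 0.04, changing sign near 0 in 2 of 14. With the collection date as a replicate block KIF4A had 0.96 (SE 0.12) and edgeR called 0 genes. In that fit KIF11 had 0.22 (SE 0.10), KIF2C −0.18 (SE 0.10) and PRC1 −0.003 (SE 0.10). Each member had a smaller SE than in the fit without the date.

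Genes called with the mimic went from 0 to 5 with DESeq2, 10 with DESeq2 and the replicate block, and 20 without a filter, and stayed at 0 with any library left out. List genes called stayed at 0 in all 14 alternatives. Genes called between dates went from 50 to 165 with DESeq2 and 576 with no filter, and ran from 55 to 4239 with a library left out. Of the 10 members, 1 (KIF4A) was then called with no filter and 0 to 4 with a library left out. The cause was not tested.

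With 3 libraries per group and no input RNA used here, binding and amount cannot be told apart, and small differences were not detectable.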
